A study of Homo sapiens with 9 samples.

Results

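The RPL21 processed pseudogenes are copies of the mRNA of RPL21, a protein of the large ribosomal subunit, that lie scattered over the human genome. They were taken as every row of the deposited gene table whose symbol was RPL21P followed by a number. There were 66 such rows among 35876 gene symbols. The family was chosen by the counts of RPL21P16, which stood out between the Cre and Flpo groups in an earlier look at these data, so values of that comparison are given as description only.

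The table came from RNA sequencing of HEK293, a cell line derived from human embryonic kidney, in a series about a reversible knockout system switched by a chemical. The labels give 3 genotypes with 3 replicates each: CC_Cas9, CC_Cas9_Cre and CC_Cas9_Flpo, called here the Cas9, Cre and Flpo groups. Cas9, an RNA-guided nuclease, and the unexplained prefix CC were thus shared by all 3 groups, and Cre and Flpo are site-specific recombinases. The labels name no chemical, dose, time, target gene, clone or promoter, and do not say whether replicates were separate cultures, so a p-value here measures the spread between these libraries only, which may be technical.

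The values are estimated counts, in which a read that matches several transcripts can be divided among them. Library totals ran from 993902 to 3761779 counts with Cas9 alone, from 213907 to 1701730 with Cre and from 4989524 to 8833491 with Flpo. Every Cre library and every Cas9 library was therefore smaller than every Flpo library. Depth and genotype cannot be told apart between the Flpo group and either of the others. Of the markers listed for HEK293, the intermediate filament genes KRT8, KRT18, VIM and NEFL were above 0 in all 9 libraries, and the neurofilament gene NEFM was so in 8. Of the kidney lineage genes, LHX1 was above 0 in 7 libraries and PAX2 had 1 count in 1 library. The CPM of these 7 genes, the count scaled to a library total of 1000000, summed to 705 to 1270 in the Cas9 libraries, 661 to 1372 in the Cre libraries and 1226 to 3578 in the Flpo libraries. Of 7 marker genes of liver, blood and fibroblasts, the T-cell gene CD3E had no count, the leukocyte gene PTPRC had counts in 2 libraries and the liver genes ALB and TTR in 1 each. The liver gene APOA1 was above 0 in all 9 libraries, at up to 4.67 CPM. The fibroblast genes DCN and COL1A1 were also above 0 in all 9, and COL1A1 ranged from 53.5 to 2041 CPM. The summed CPM of those 7 marker genes of other cell types was 83.8 to 284 in the Cas9 libraries, 192 to 2102 in the Cre libraries and 54.7 to 69.0 in the Flpo libraries. Their part in the results below was not tested.

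A processed pseudogene arises when a spliced mRNA is copied back into DNA and inserted at a new place in the genome. The copy starts without introns and usually without a promoter, and then gathers mutations. Genes for ribosomal proteins, which are transcribed strongly in every dividing cell, have left many such copies. A young copy differs from its parent mRNA at few positions, so a short read from the mRNA can match both.

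All 66 copies had a sequence in GENCODE release 29 (build GRCh38), which annotates 65 as processed pseudogenes and 1, RPL21P123, as a transcribed processed pseudogene. They lay on 18 chromosomes, 32 between genes, 28 in an intron of another gene and 6 over an exon of another gene. The parent RPL21 (ENSG00000122026.10, chr13:27251309-27256691, plus strand) has a coding sequence of 483 bases. Copies were 167 to 791 bases long, with a median of 477, and aligned to the RPL21 transcript with an identity of 61.1% to 100% and a median of 88.9%. Identity was at least 99% in 4 copies and at least 90% in 28. The full open reading frame of 483 bases was intact in 6 copies, RPL21P16, RPL21P28, RPL21P75, RPL21P11, RPL21P131 and RPL21P7.

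The copy that held most of the family's counts, RPL21P16, had the same letters as the RPL21 coding sequence over all 483 bases. RPL21P16 (ENSG00000220842.6) lies at chr10:120354701-120355183 on the minus strand, between genes, and has no intron. The next lines set the first 150 coding bases of RPL21 beside copies that took the most counts and still align at the start codon. They are in the sense direction, with capitals at letters that are substituted or added in the alignment to RPL21. Missing letters are not marked. RPL21P119, which is shown for its close match, was chosen after its values were seen.
RPL21: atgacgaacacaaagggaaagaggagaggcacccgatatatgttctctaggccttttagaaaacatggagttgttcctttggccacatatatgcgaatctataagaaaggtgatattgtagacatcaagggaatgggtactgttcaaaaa
RPL21P16: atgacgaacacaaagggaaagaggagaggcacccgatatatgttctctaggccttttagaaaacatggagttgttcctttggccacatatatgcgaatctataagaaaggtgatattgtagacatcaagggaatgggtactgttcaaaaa
RPL21P28: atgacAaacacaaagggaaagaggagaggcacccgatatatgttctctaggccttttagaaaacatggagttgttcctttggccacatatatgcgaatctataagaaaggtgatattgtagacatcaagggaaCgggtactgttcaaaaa
RPL21P119: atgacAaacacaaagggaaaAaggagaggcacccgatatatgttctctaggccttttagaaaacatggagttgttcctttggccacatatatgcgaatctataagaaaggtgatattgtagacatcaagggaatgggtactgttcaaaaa
RPL21P93: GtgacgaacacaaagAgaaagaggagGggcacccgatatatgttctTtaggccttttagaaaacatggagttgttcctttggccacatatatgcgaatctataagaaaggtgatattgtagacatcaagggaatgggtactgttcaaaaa
RPL21P44: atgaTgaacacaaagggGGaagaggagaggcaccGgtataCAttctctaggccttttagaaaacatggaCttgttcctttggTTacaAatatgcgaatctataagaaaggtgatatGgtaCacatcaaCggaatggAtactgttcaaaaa
The stretches lie at chr10:120355034-120355183 for RPL21P16, chr1:212051857-212052006 for RPL21P28, chr16:9156732-9156881 for RPL21P119, chr10:28899335-28899484 for RPL21P93 and chr4:53986909-53987058 for RPL21P44, all on the minus strand. RPL21P16 carried no capital. In RPL21P44 the first pair of capitals holds the substitution A18G and an added letter, and a letter further on is missing without a mark. Letters between these places are therefore shifted against the RPL21 line. Counting from the A of the start codon, RPL21P28 differed from the whole RPL21 coding sequence by G6A, T134C and C294T. RPL21P93 differed by 10 substitutions, the first of which, A1G, falls in the start codon itself.

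A single substitution is enough to give a copy sequence of its own. RPL21P75 (chr7:20002765-20003247, plus strand, over an exon of another gene) differed from RPL21 by G397A alone, and RPL21P119 by G6A, G21A, A410T and C479A. Bases 381 to 420 show the substitution of RPL21P75 and the third of RPL21P119 in that list. These 2 copies were shown after their sequences were seen.
RPL21: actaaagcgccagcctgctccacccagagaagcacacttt
RPL21P16: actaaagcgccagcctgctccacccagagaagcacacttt
RPL21P75: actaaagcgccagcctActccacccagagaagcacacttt
RPL21P119: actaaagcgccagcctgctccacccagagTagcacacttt
The stretches lie at chr10:120354764-120354803 for RPL21P16, chr7:20003145-20003184 for RPL21P75 and chr16:9156462-9156501 for RPL21P119.

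To count how much of a copy could be told apart, each sequence was broken into all its 31-base words, the length that Salmon, the counting tool named in the submitters' processing notes, uses by default. All 453 words of RPL21P16 were also in RPL21, and no other of the 66 copies had every word there. RPL21P75 had 422 of 453 words in RPL21, RPL21P119 had 396 of 450, RPL21P28 had 385 of 453 and RPL21P93 had 302 of 459. RPL21P44 had 34 of 442 and RPL21P135 had 37 of 761, while 9 copies shared no word with RPL21. The letters alone thus cannot assign a read that lies inside RPL21P16, whereas RPL21P44 had 306 words found in no other gene of the annotation. RPL21 itself has a transcript of 815 bases, of which those outside the coding sequence are not part of RPL21P16.

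Counts fell on 53 of the 66 copies, and 13 were at 0 in all 9 libraries. The 53 copies summed to 5641 estimated counts, against 16257 for RPL21. RPL21P16 took 4485 of the 5641, or 79.5%, and the other copies together took 1155. This pooled share is mostly that of the Flpo libraries, where RPL21P16 held 88.8%, 62.4% and 88.0% of the family's counts. It held 0%, 37.6% and 73.4% with Cas9 alone and 0% in every Cre library. Only 3 copies, RPL21P16, RPL21P93 and RPL21P44, summed to 100 counts or more, 10 reached 30, and 26 had counts but fewer than 10. The intact reading frame did not go with counts in every case, since RPL21P7, named after its value was seen, had the full frame and no count in any library.

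**Figure D1:**
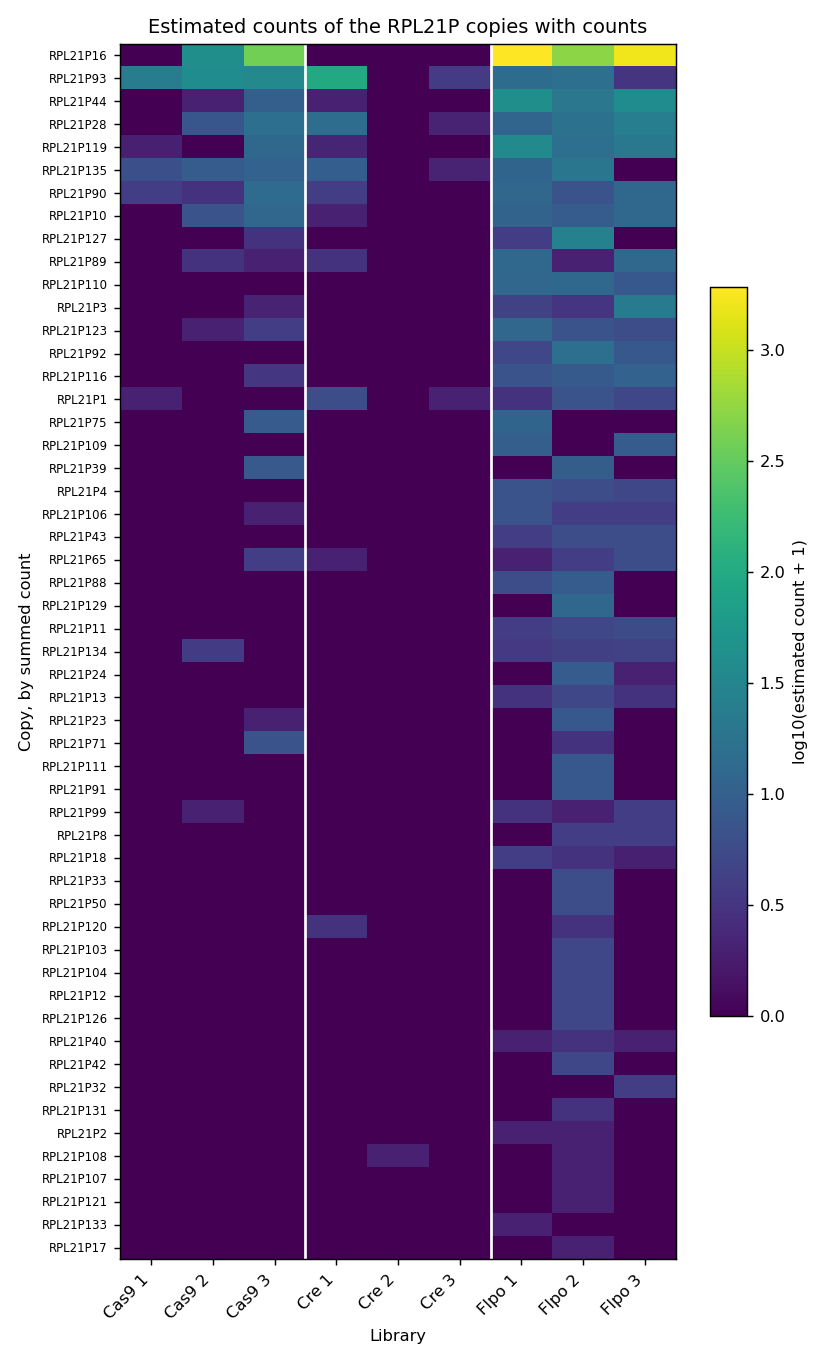
Estimated count of each of the 53 copies with counts (rows, ordered by summed count) in each of the 9 libraries (columns, white lines between groups), as colour on a log10(count + 1) scale. RPL21P16 is the brightest row in the Flpo libraries and dark in all Cre libraries, and most lower rows are above 0 only in the Flpo columns.

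The number of copies above 0 was 5, 11 and 19 with Cas9 alone, 11, 1 and 4 with Cre, and 31, 49 and 28 with Flpo. All 3 Flpo libraries were above the other 6, and they were also the 3 largest libraries. Any Cas9 library showed 22 of the 66 copies, any Cre library 12 and any Flpo library all 53 that had counts. In the Flpo libraries alone, 29 copies had counts, of which 14 were in Flpo replicate 2 only. Leaving out that library, the number with counts in the Flpo group alone was 15. No copy was above 0 in all 9 libraries, and 1, RPL21P93, was above 0 in all but Cre replicate 2, the smallest library.

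The family did not stand apart from other ribosomal protein pseudogenes in this respect. The share of copies above 0 was 7.58%, 16.7% and 28.8% in the Cas9 libraries, 16.7%, 1.52% and 6.06% in the Cre libraries and 47.0%, 74.2% and 42.4% in the Flpo libraries. Among 991 pseudogenes of other ribosomal proteins it was 8.98%, 12.3% and 29.6%, then 11.8%, 7.57% and 9.69%, then 43.4%, 65.99% and 34.7%. Over all gene symbols the lowest share was 31.7%, in Cre replicate 2, and the highest 62.4%, in Flpo replicate 2, so both kinds of pseudogene lay below the table as a whole in 8 libraries and above it in Flpo replicate 2.

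**Figure D2:**
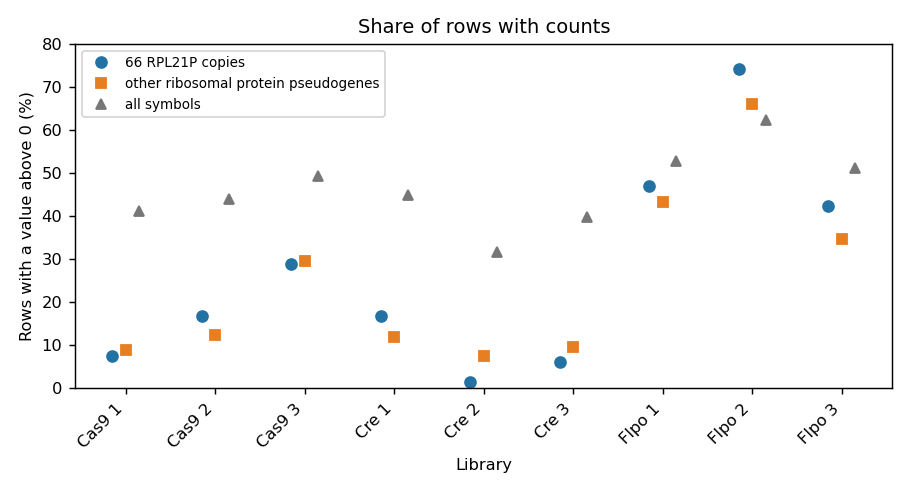
Percentage of rows with a value above 0 in each library, for the 66 RPL21P copies (circles), 991 pseudogenes of other ribosomal proteins (squares) and all symbols (triangles). The circles lie between 1.52% (Cre replicate 2) and 74.2% (Flpo replicate 2), and the squares take a like course.

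Fractional values were most frequent in the copies that share most sequence with RPL21. Of 159 copy values above 0, among 594 values in all, 70 (44.0%) were more than 0.001 away from a whole number, against 42.1% for the other ribosomal protein pseudogenes and 53.5% for the whole table. Among the 9 copies with at least 50% of their words in RPL21, 39 of 39 values above 0 were not whole. Among the 15 copies with 10% to under 50% of their words there, 21 of 40 values were not whole, and among the 42 copies with under 10% the number was 10 of 80. RPL21P135 gave 7 of these 10. In all, 34 copies had whole values in every library where they had counts, and 13 copies had none. These are shares over values of the same 9 libraries, given as a description.

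Most of the family's counts were in RPL21P16, which is among the copies that share most words with RPL21. The 9 copies with the most shared words summed to 4945 counts, of which RPL21P16 alone made up 4485, and each of the 9 had counts. The high sum of this class thus rested on RPL21P16. The 15 copies in the middle class summed to 160, with 13 above 0, and the 42 copies with under 10% of shared words summed to 537, with 31 above 0. Median summed counts per copy were 18.2, 6 and 4.5 in these classes, in this order. A close match was not enough for a high value, since RPL21P75 had 7.71 counts in Cas9 replicate 3, 10.46 in Flpo replicate 1 and 0 in the other 7 libraries.

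**Figure D3:**
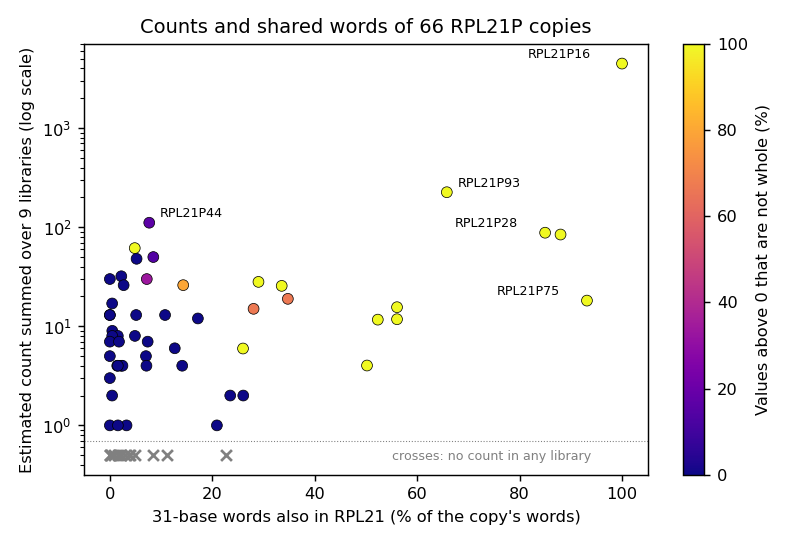
Percentage of a copy's 31-base words that also occur in RPL21 (x axis) against its estimated count summed over 9 libraries (y axis, log scale), 1 point per copy, coloured by the percentage of its values above 0 that are not whole. RPL21P16 stands alone at 100% shared words with 4485 counts, and all copies at or beyond 50% have no whole value. Crosses below the dotted line are the 13 copies without counts.

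RPL21P16 was at 0 estimated counts in Cas9 replicate 1, 41.6 in replicate 2 and 383 in replicate 3. It was at 0 in all 3 Cre libraries, and at 1923, 510 and 1628 in the Flpo replicates. The parent RPL21, whose protein sits in the large subunit, was present in every library, with 463, 1257 and 2376 counts under Cas9 alone. It had 1277, 29.96 and 180 counts with Cre and 4705, 1518 and 4451 with Flpo.

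As the coding letters of the 2 rows are the same, the division between them was described as a share of their sum. RPL21P16 held 0%, 3.21% and 13.9% of the sum in the Cas9 libraries, where the Wilson 95% interval was 0 to 0.823% in the first, 2.40% to 4.34% in the second and 12.6% to 15.2% in the third. In the Cre libraries it held 0%, with Wilson upper limits of 0.300%, 11.4% and 2.09%. The limit of 3 counts of the sum, used here for a count of 0, was 0.235%, 10.01% and 1.66% in these libraries and 0.648% in Cas9 replicate 1. In the Flpo libraries it held 29.01%, 25.2% and 26.8%, with intervals of 27.9% to 30.1%, 23.3% to 27.1% and 25.7% to 27.9%. The intervals and limits cover counting error only and not the error of dividing reads between identical letters. The 3 Flpo values lay above all others, and the Cas9 libraries differed among themselves by more than their intervals. Within the Flpo group, the lower limit of replicate 1 (27.93%) was above the upper limits of replicate 2 (27.07%) and replicate 3 (27.91%).

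The mean share was 27.0% ± 1.93 in the Flpo group and 5.69% ± 7.26 in the Cas9 group (SD, n = 3 each), a difference of 21.3 percentage points. Between the Cre and Cas9 groups the difference was -5.69 percentage points. The share was higher in all 3 Flpo libraries than in any Cas9 library. As RPL21P16 was chosen by its Cre and Flpo counts, these values are a description and no p is given.

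Depth moved with the share. The 4 libraries in which RPL21P16 held over 10% of the sum, Cas9 replicate 3 and the 3 Flpo replicates, were the 4 with the highest totals. Cre replicate 1, with a total of 1701730, had 1277 counts of RPL21 and 0 of RPL21P16. Cas9 replicate 2, with a total of 1643166, had 1257 and 41.6, and Flpo replicate 2, with a total of 4989524, had 1518 and 510. The part of depth in the share was not tested, since the 3 largest libraries were all Flpo.

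**Figure D4:**
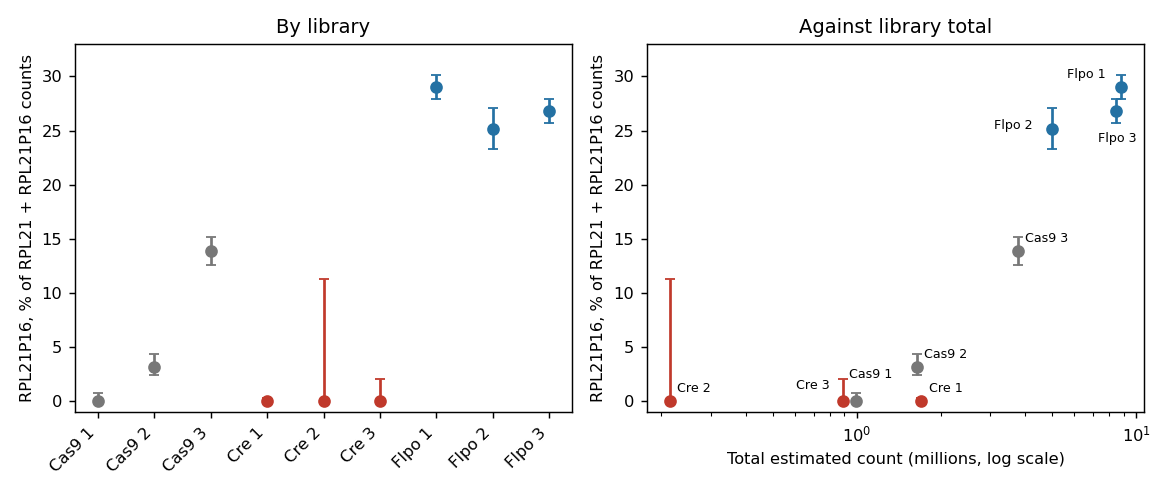
Share of RPL21P16 in the summed estimated counts of RPL21 and RPL21P16, by library (left) and against the library total on a log axis (right). Points are libraries (grey Cas9, red Cre, blue Flpo) and bars are Wilson 95% intervals for counting error. The Flpo libraries sit at 25.2% to 29.01%, all above the Cas9 libraries, and the 3 Cre libraries sit at 0%.

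On the scale of CPM, RPL21P16 was at 0, 25.3 and 101.8 in the Cas9 libraries and at 218, 102.3 and 193 in the Flpo libraries, or 42.4 ± 53.0 and 171 ± 60.7 (SD, n = 3 each). Cas9 replicate 3 and Flpo replicate 2 were thus nearly level, although the groups did not overlap. The edgeR quasi-likelihood fit to all 11905 genes that passed its low-count filter gave a log2 fold change of 2.41 for Flpo against Cas9 (SE 1.10). No p is given, since 3 libraries had to be above the filter's minimum and RPL21P16 met this through the Flpo group, where it is high. With log2 of the library total as a covariate the estimate turned to -1.28.

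The sum of RPL21 and RPL21P16 does not depend on how reads were divided between them. It was 465, 790 and 733 CPM in the Cas9 libraries, 751, 140 and 202 in the Cre libraries and 750, 407 and 721 in the Flpo libraries. The 3 groups overlapped on this scale, and the highest Cre library was level with the highest Flpo library. As 1 row in the edgeR fit, the sum had a log2 fold change of -1.10 for Cre against Cas9 (SE 0.72) and 0.46 for Flpo against Cas9 (SE 0.71). This row was formed after the sequences were found to be identical, and it holds the counts of RPL21P16, so no p is given.

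RPL21 by itself was at 621 ± 150 CPM with Cas9 alone, 364 ± 336 with Cre and 455 ± 130 with Flpo (SD, n = 3 each). Exact two-sided permutation tests over the 20 splits gave p = 0.3 for both Cre and Flpo against Cas9, or 0.45 with Benjamini-Hochberg adjustment over 6 tests. The other tests among the 6 were on shares of RPL21P16 and RPL21P93 and are not given. The smallest p that 3 against 3 libraries can give is 0.1, so the design cannot reach 0.05. In edgeR, with Benjamini-Hochberg adjustment over all genes tested, the log2 fold change was -0.996 for Cre against Cas9 (SE 0.70, adjusted p = 0.622) and 0.10 for Flpo against Cas9 (SE 0.69, adjusted p = 0.949). The sign of the second estimate flipped to -0.45 without TMM scaling, a correction for differences in library composition. TMM also moved the median of all tested genes, from -0.48 to 0.05 for Flpo against Cas9, from 0.03 to -0.22 for Cre against Cas9 and from 0.44 to -0.34 for Cre against Flpo.

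RPL21P93, the copy with the second highest counts, had the opposite order of Cas9 and Flpo libraries. It lies at chr10:28898996-28899484 on the minus strand, in an intron of LINC01517, a long noncoding RNA gene on the opposite strand, and matched RPL21 at 98.0%. Its counts were 22.8, 38.8 and 33.7 in the Cas9 libraries, 97.2, 0 and 2.76 in the Cre libraries and 13.3, 14.95 and 2.08 in the Flpo libraries. On the CPM scale this was 18.5 ± 8.25, 20.1 ± 32.1 and 1.58 ± 1.38 (SD, n = 3 each). All 3 Flpo libraries were below all 3 Cas9 libraries, and the Cre mean rested on replicate 1.

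As a share of RPL21 plus RPL21P93, this copy held 3.03% ± 1.64 in the Cas9 group and 0.434% ± 0.483 with Flpo (SD, n = 3 each), a difference of -2.59 percentage points. In edgeR the log2 fold change for Flpo against Cas9 was -3.004 (SE 1.12). RPL21P93 met the low-count filter through the Cas9 group, where it is high, so no p is given for it. Between the Cre and Cas9 groups the log2 fold change was 0.16 (SE 1.03), and without Cre replicate 1 it was -3.14.

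The other 3 copies with the highest mean CPM were low. RPL21P28 (chr1:212051524-212052006, in an intron of the ubiquitin ligase component DTL, opposite strand) had 0, 6.65 and 14.8 counts in the Cas9 libraries, 14.1, 0 and 1.13 in the Cre libraries and 10.9, 16.1 and 24.3 in the Flpo libraries. RPL21P135 (chr3:37748110-37748900, in an intron of the integrin gene ITGA9 on the same strand) had 5.27, 7.95 and 9.89, then 8.52, 0 and 1.03, then 10.4, 18.5 and 0. Unspliced ITGA9 RNA would carry the same letters as RPL21P135, so the counts of this copy are uncertain. In addition, 228 of its 761 words were also in other genes, 1403 in all, and none of its 7 values above 0 was whole. The groups overlapped for both copies. As the use of strand is not given, unspliced RNA of the opposite-strand genes around RPL21P28, RPL21P93 and RPL21P44 could add to their counts too. This was not tested.

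RPL21P44 (chr4:53986587-53987058, minus strand, in an intron of AC058822.1 on the opposite strand) matched RPL21 at 90.7%. Its counts were 0, 1 and 9 in the Cas9 libraries, 1, 0 and 0 in the Cre libraries and 42, 19 and 39.0 in the Flpo libraries, and 1 of its 6 values above 0 was not whole. It was the only one of the 5 leading copies whose values were mostly whole. Its level in CPM was 1.0004 ± 1.24, 0.196 ± 0.339 and 4.40 ± 0.514 (SD, n = 3 each), so the Flpo libraries were above the rest. RPL21P44 did not pass the low-count filter, and a copy that passes only through the group where it is high had to differ, so no test is given.

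RPL21P119 (chr16:9156402-9156881, minus strand, between genes) had 0.961, 0 and 11.7 counts in the Cas9 libraries, 1.19, 0 and 0 in the Cre libraries and 35.9, 14.8 and 19.8 in the Flpo libraries. None of its 6 values above 0 was whole.

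Summed over the family, the copies held 33.2, 67.4 and 139 CPM in the Cas9 libraries, 79.9, 4.67 and 6.64 in the Cre libraries and 245, 164 and 219 in the Flpo libraries. Without RPL21P16 the sums were 33.2, 42.0 and 36.8, then 79.9, 4.67 and 6.64, then 27.4, 61.6 and 26.4. The group means without RPL21P16 were 37.3 ± 4.44 CPM with Cas9 alone, 30.4 ± 42.9 with Cre and 38.5 ± 20.1 with Flpo (SD, n = 3 each). The Flpo group was above the Cas9 group with RPL21P16 and overlapped it without.

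The family's share of RPL21 plus RPL21P counts was 10.9% ± 6.17 with Cas9 alone, 5.34% ± 3.70 with Cre and 32.0% ± 2.85 with Flpo (SD, n = 3 each). Leaving out RPL21P16, it was 5.79% ± 0.764, 5.34% ± 3.70 and 8.83% ± 6.93. Flpo replicate 2 was at 16.8% on this measure and the other 2 Flpo libraries at 4.89% and 4.76%, beside 5.21% to 6.66% in the Cas9 libraries. The highest Cre library, replicate 1, was at 9.62%. No p is given for these sums, since the members were chosen with results known.

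Of the 66 copies, RPL21P16 and RPL21P93 passed the low-count filter, each through a group where it is high, so counts of called copies describe the fits and support nothing about the family. For Cre against Cas9, edgeR called 0 of the 2 copies and 0 (0%) of the 11905 genes at an adjusted p under 0.05, and 1 copy (RPL21P16) and 879 genes (7.38%) at an unadjusted p under 0.05. DESeq2 called 0 copies and 4 of 25386 genes. All Cre values of RPL21P16 were 0, so no fold change is given. With no low-count filter, edgeR called RPL21P16 beside 51 of 25386 genes.

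For Flpo against Cas9, edgeR called 0 copies and 27 genes (0.227%), and 1 copy (RPL21P93) and 2378 genes (20%) at an unadjusted p under 0.05. Both copies had groups that did not overlap, beside 25% of all genes. DESeq2 called 0 copies and 1090 of 25386 genes. The number of genes called moved from 27 to 2685 of 12595 without Flpo replicate 2, the fit in which RPL21P93 was called too. It was 0 without Cas9 replicate 1, Cas9 replicate 2, Cre replicate 2, Flpo replicate 1 or Flpo replicate 3, and 74 without Cas9 replicate 3. With no low-count filter it was 1169 of 25386, with RPL21P16 and RPL21P93 among them.

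For Cre against Flpo, the comparison by which RPL21P16 was chosen, its call was fixed by that choice and is not a result. The fit called 2440 genes (20.5%), of which 735 (6.17%) were higher and 1705 (14.3%) lower in the Cre group. Without TMM the split was 2039 higher and 840 lower. No gene was called without Cre replicate 2, Cre replicate 3 or Flpo replicate 1, or with the library total as a covariate, while 405 were called without Flpo replicate 3, 1386 without Cas9 replicate 2 and 5559 without Flpo replicate 2. RPL21P93 had a log2 difference of 3.17 (SE 1.12) in this comparison, and -0.12 without Cre replicate 1. With RPL21 and RPL21P16 as 1 row, the log2 difference was -1.56 (SE 0.73), beside a median of -0.34 over all genes.

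The genes and pseudogenes of the other ribosomal proteins give the background. All 46 other large-subunit genes, a list chosen with results of these data known, were tested, and edgeR called 0 in either direction for Cre against Cas9 (14 at an unadjusted p under 0.05) and for Flpo against Cas9 (1 unadjusted). Their median log2 fold change was -1.43 for Cre against Cas9, where that of all genes was -0.22, and 0.32 for Flpo against Cas9, where that of all genes was 0.05. For Cre against Flpo, 12 of them were called lower in the Cre group and 0 higher, beside 14.3% and 6.17% of all genes. Their median there was -1.79, where that of all genes was -0.34. Of the 991 pseudogenes of other ribosomal proteins, 50 were tested. For Flpo against Cas9, 1 of them rose (22 at an unadjusted p under 0.05, beside 20% of all genes), with a median of 1.52 over the 50. For Cre against Cas9 none was called (16 unadjusted, beside 7.38% of all genes), with a median of -0.92. For Cre against Flpo, 27 of the 50 were called lower in the Cre group and 6 higher, with a median of -3.25. A pseudogene may have passed the filter through the group where it is high, so these counts are a description. The medians describe the tested pseudogenes alone.

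Among 75 ribosomal protein genes with pseudogenes, RPL21 had the second largest number of copies, after the 91 of RPL23A. Its copies had rank 4 by summed count, and rank 2 by their share of parent plus pseudogene counts, at 25.8% beside 29.9% for RPL23A. These pooled counts are mostly from the Flpo libraries. By group, the mean share of the RPL21 family was 10.9% with Cas9 alone, beside 20.9% for RPL22, 19.9% for RPS6 and 15.1% for RPL3. It was 5.34% with Cre, where many families were higher, among them RPS6 at 43.0%, RPL3 at 31.1%, RPL23A at 28.8% and RPL13A at 24.3%. With Flpo it was 32.0%, beside 36.5% for RPL23A. In RPL23A the leading pseudogene, RPL23AP82, held 38.9% of the pooled pseudogene counts, against 79.5% for RPL21P16 in its family.

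A complete match to the parent was rare, and the 3 other pseudogenes that had it were shorter than RPL21P16. Of 1057 ribosomal protein pseudogenes with a sequence, 4 had every 31-base word in the parent gene, namely RPL21P16, RPL39P3, RPS28P7 and RPL41P1. They had 453, 126, 180 and 51 words, in this order, and the part of length in their shares was not tested. RPL39P3 held 0 to 0.982% of the counts of its pair with RPL39 across the 9 libraries, and RPS28P7 held 0 to 1.12% of its pair with RPS28. RPL41P1 held 0% to 0.0255% of its pair with RPL41 in 8 libraries, and 6.09% (4 counts) in Cre replicate 2, the smallest. At least 80% of the words were in the parent for 16 pseudogenes outside the RPL21 family, these 3 included. Of the 16, RPL18AP3, picked after its values were seen, held 2.34%, 3.53% and 2.19% of its pair in the Flpo libraries, 0.478%, 0.690% and 2.22% in the Cas9 libraries and 0.206%, 0 and 0 in the Cre libraries. RPL3P4, picked in the same way, had the reverse order, with 0.0280% to 0.812% in the Flpo libraries, 5.73% to 19.6% in the Cas9 libraries and 10.9% to 57.5% in the Cre libraries. RPL23AP42, which had the most counts of the 16 (4358), held 7.46% to 11.8% of its pair in the Flpo libraries. It held 1.19% to 4.06% with Cas9 alone and 3.60% to 29.3% with Cre. RPL9P9, the next by counts (2049), held 6.61% to 9.37% with Flpo, 4.84% to 14.7% with Cas9 alone and 6.58% to 12.2% with Cre. The near-identical pseudogenes thus did not share 1 order of the groups.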

How the data were processed

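RNA from HEK293 cells was made into 9 libraries, 3 per genotype. The kit was TruSeq RNA per the labels' protocols, whose text also speaks of livers. The authors deposited 1 table of estimated counts per gene symbol, not normalized, made with Salmon 0.14.1 and build hg38 per the submitters' processing notes. The annotation, filters and use of strand are not given in the sources used here. The copies and gene lists were chosen with earlier results of these data known.

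Estimated counts were rounded and tested with edgeR 4.0.16 (R 4.3.3, quasi-likelihood, TMM, all 9 libraries, no covariates, filter minimum 10 and total 15), with Benjamini-Hochberg adjustment over 11905 genes and a threshold of 0.05. An SE is the size of the log2 fold change over the root of edgeR's F. The code was checked on simulated counts. CPM is the unrounded count scaled to a library total of 1000000, without TMM, and 3 counts were 0.340 to 14.0 CPM. A value was called whole within 0.001. Exact permutation tests used scipy 1.17.1, and Wilson intervals (95%) used statsmodels 0.14.6. Sequences, places and 31-base words (both strands for other genes) are from GENCODE release 29 (GRCh38), matched by symbol, and identity is 1 minus edits over length. Named copies were those that passed the filter, those called and the 5 with the highest mean CPM, with RPL21 as reference.

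Alternatives were DESeq2 1.42.0, no TMM, other filters, unrounded counts, only the groups compared, the replicate number as a block, log2 library total as a covariate and each library left out. RPL21 and RPL21P16 as 1 row, and counts of copies without Flpo replicate 2, were added after seeing the data.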

Additional observations from a re-analysis of the deposited data

How the results depend on the processing

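The number of called copies was compared over 9 settings that kept all libraries and 3 comparisons, or 27 cases. It stayed within 1.5 times of the main count, or at 0 where that was 0, in 19 of them. For Cre against Flpo it was 1 (RPL21P16) in the main fit, 2 without TMM (with RPL21P93), 2 with only those groups (with RPL21P44), 3 with no low-count filter or with DESeq2 (all 3 copies, beside 3613 and 4023 of 25386 genes), and 0 with log2 library total as a covariate or with RPL21 and RPL21P16 as 1 row, which removes RPL21P16 by construction. RPL21P44 passes only through the Flpo group and RPL21P16 was chosen by this comparison, so these counts support nothing. With no filter it was 1 for Cre against Cas9 (RPL21P16) and 2 for Flpo against Cas9 (RPL21P16 and RPL21P93), beside 51 and 1169 of 25386 genes. Leaving out 1 library gave 0 to 2 copies for Cre against Flpo, with 0 without Cre replicate 2, Cre replicate 3 or Flpo replicate 1 and 2 without Cas9 replicate 1 or Flpo replicate 2. It gave 0 to 1 for Flpo against Cas9 (RPL21P93, without Flpo replicate 2) and 0 to 0 for Cre against Cas9, while calls over all genes ran from 0 to 5559, from 0 to 2685 and from 0 to 0.

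Of the log2 fold changes of RPL21P16, RPL21P93 and RPL21 under the 3 comparisons, 6 of 77 values under other settings and 5 of 81 values with a library left out changed sign. RPL21 for Flpo against Cas9 (main 0.10) was -0.45 without TMM, -0.10 with the replicate block and -1.34 with the covariate, and ran from -0.20 without Flpo replicate 1 and -0.15 without Cas9 replicate 1 to 0.34. The covariate also turned RPL21P16 for Flpo against Cas9 to -1.28 and RPL21 for Cre against Flpo to 1.01. RPL21P93 for Cre against Cas9 (main 0.16) was -0.62 with the replicate block, -0.14 without Cas9 replicate 3 and -3.14 without Cre replicate 1, with 0.69 the highest. For Cre against Flpo it ran from -0.12 without Cre replicate 1 to 3.90. The cause of these changes was not tested.

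The Flpo mean of summed CPM (209) was 289 with TMM and 38.5 without RPL21P16, and the share of Flpo values that were not whole (40.8%) was 25.3% with a tolerance of 0.05. The replicate block changed no call of a copy, with 0, 0 and 1 called. Same-numbered libraries did not deviate together on average (mean correlations -0.33, -0.09 and 0.12). Single correlations ran from -0.48 to -0.14 for Cre against Cas9, from -0.55 to 0.53 for Flpo against Cas9 and from -0.21 to 0.37 for Cre against Flpo. With so few libraries these values do not settle whether the numbers pair them. Among all genes the block left 0, 6 and 1568 calls, against 0, 27 and 2440 without it.

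Depth limits the absence of counts: 3 counts were 14.0 CPM in Cre replicate 2 and 0.340 CPM in Flpo replicate 1.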
